A study of Mus musculus with 24 samples.

Results

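The genes described here make heme and bring in the iron for it: 7 enzymes of heme synthesis (Alas2, Alad, Uros, Urod, Cpox, Ppox and Fech), the mitochondrial iron importer mitoferrin (Mscp on the array, Slc25a37 in current nomenclature) and the transferrin receptor Tfrc. They were picked as members of the pathway, with earlier results of these data known, and found on the arrays by gene symbol. They were 9 of the 18120 symbols and 16 of the 25697 probes on the arrays. All 9 were among the 9591 symbols that passed the detection filter and were tested, with 14 of their 16 probes. Expression was measured on 24 Illumina arrays in cells of day 6 mouse embryoid bodies, the aggregates that embryonic stem cells form as they differentiate in culture. All cells were of the Ainv15 line with a doxycycline-inducible ICN1, the intracellular part of the Notch1 receptor. In the induced groups (ICN 3-5) the transgene was switched on from day 3 to day 5, and in the non-induced groups (ICN 0) it was not. Under both conditions the cells were sorted into 4 fractions, called VE sp, DP, CD41 sp and DN in the labels, which do not spell the names out, and each of the 8 groups had 3 replicates. Induction always came with doxycycline, so the drug and ICN1 cannot be told apart, and the labels name no clone and do not say whether replicates were separate cultures. The p-values therefore measure only how far these replicates lay apart, which may be a technical spread.

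Heme is built from glycine and succinyl-CoA in steps that start in the mitochondrion, move to the cytosol and return to the mitochondrion, where iron is put into the finished ring. Developing red cells are the body's main makers of heme, which they need for hemoglobin. They take up transferrin-bound iron through the transferrin receptor, carry it into the mitochondrion through mitoferrin and use an erythroid form of the first enzyme. In the mouse yolk sac and in embryoid bodies the first red cells arise beside the first endothelial cells.

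A level below is the log2 of the background-corrected and quantile-normalised intensity plus an offset of 16, and a change is a difference of mean levels between 2 groups. The offset makes fold changes of dim probes too small, and brightness cannot be compared between probes. A gene was called changed when the Benjamini-Hochberg adjusted p of limma, over all 9591 genes tested, was under 0.05, and errors of changes are standard errors from that fit with 3 arrays a group. The sort itself could be seen in 2 genes. Itga2b, which encodes CD41, had mean levels of 9.52 in non-induced VE sp, 11.27 in DP, 11.00 in CD41 sp and 7.91 in DN cells. Cdh5, which encodes VE-cadherin, had mean levels of 10.36 in non-induced VE sp and 9.64 in DP cells, and was not above background on any of the 12 CD41 sp and DN arrays. The mean raw intensity of an array ran from 165 to 656. On the ICN 3-5 DP array of replicate 3, 2.92% of the probes that were otherwise bright (mean level over 7 and detected on the other arrays of the group) were not detected, the highest share of the 24 arrays, against 0.554% on the next.

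Heme synthesis and iron import genes were high in the CD41 sp and DN fractions and low in the VE sp and DP fractions, with and without induction. For all 9 genes, each of the 12 CD41 sp and DN arrays lay above each of the 12 VE sp and DP arrays. Such a gap was found for 1.60% of the genes tested (153 of 9591). In the authors' processed values, 5 of the 9 genes showed it. Since the 9 were picked with earlier results of these data known, this and later shares over all genes are descriptions, not tests. In non-induced cells all 9 fell in VE sp against DN (median change -2.61) and all 9 fell in DP against DN (median change -2.33). Of all genes tested, 12.2% were called lower in VE sp than in DN, with a median change over all genes of -0.09. In DP against DN, 10.9% were called lower, with a median change of -0.04, and 7.24% were lower in both comparisons. The drops ran between 32.7-fold for Alas2 and 3.18-fold for Urod in VE sp, and between 15.6-fold for Alas2 and 2.35-fold for Fech in DP. In sorted bulk RNA, fewer cells that make these enzymes and less message per cell cannot be told apart.

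**Figure D1:**
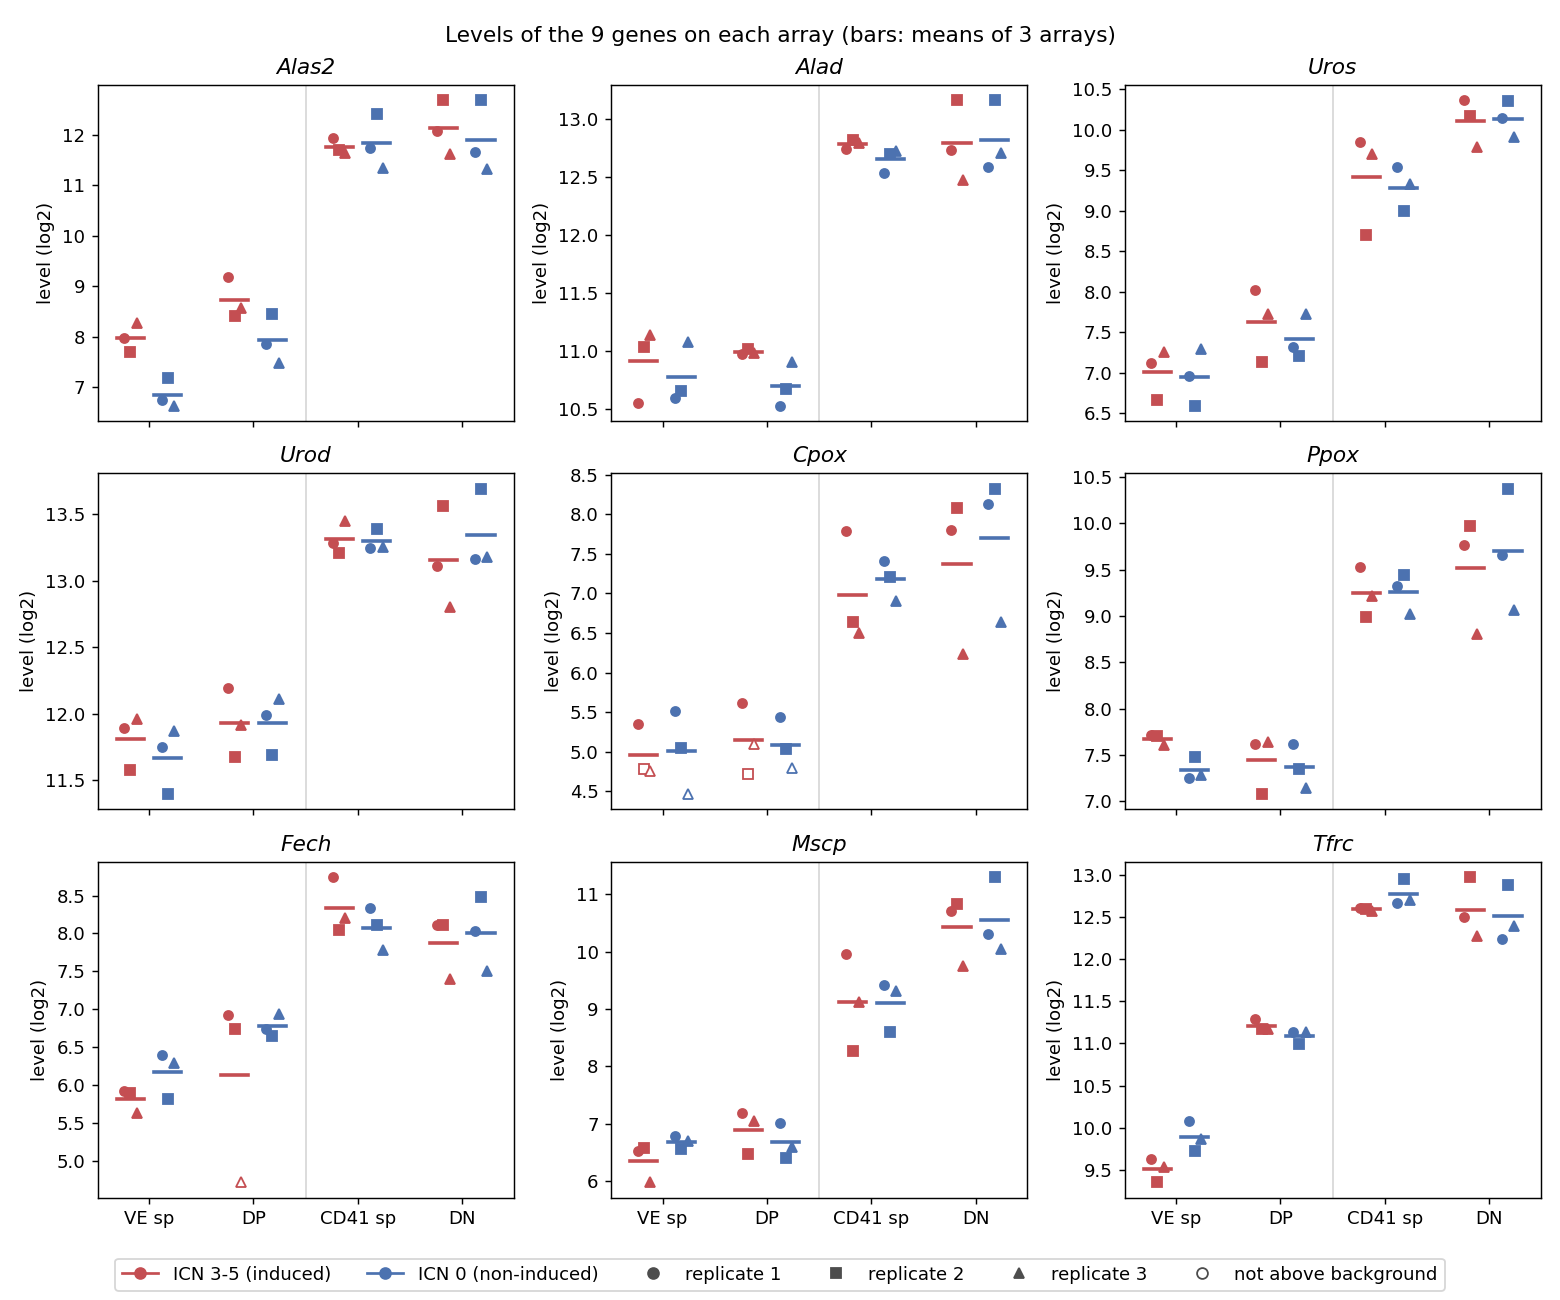
Level of each of the 9 genes on each of the 24 arrays (vertical axis, log2 of intensity plus the offset), by fraction (horizontal axis), with induced cells (red) left of non-induced cells (blue). Bars mark group means of 3 arrays, and open symbols mark arrays where the probe was not above background. In every panel all CD41 sp and DN arrays lie above all VE sp and DP arrays.

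The start regions of 3 members are shown here because they hold the binding word of GATA factors, which drive many red cell genes. Each is the 250 bases before an annotated gene start, in the RefSeq table of the mouse build GRCm38.p6, written 5′ to 3′ along the gene's own strand. Capitals mark the GATA word, an A or a T followed by GATA and then by an A or a G, on either strand. The Alas2 window lies at chrX:150547167-150547416 on the plus strand and has the word 86 bases before the gene start. The Cpox window lies at chr16:58669958-58670207 on the plus strand, with a word at 91 bases and another at 86 bases before the start, overlapping by a base. The Uros window belongs to the downstream of its annotated starts, at chr7:133702501-133702750 on the minus strand, with a word at 205 bases and another at 68 bases before the start.
Alas2: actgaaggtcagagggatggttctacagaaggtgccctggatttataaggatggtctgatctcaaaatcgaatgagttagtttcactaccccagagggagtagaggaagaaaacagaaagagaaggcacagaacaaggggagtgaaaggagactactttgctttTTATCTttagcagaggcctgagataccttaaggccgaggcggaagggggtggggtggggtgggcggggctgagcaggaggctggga
Cpox: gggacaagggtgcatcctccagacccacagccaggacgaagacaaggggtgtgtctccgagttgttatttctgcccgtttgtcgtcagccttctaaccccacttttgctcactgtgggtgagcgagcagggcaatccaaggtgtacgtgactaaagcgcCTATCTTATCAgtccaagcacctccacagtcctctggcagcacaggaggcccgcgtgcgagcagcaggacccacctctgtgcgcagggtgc
Uros: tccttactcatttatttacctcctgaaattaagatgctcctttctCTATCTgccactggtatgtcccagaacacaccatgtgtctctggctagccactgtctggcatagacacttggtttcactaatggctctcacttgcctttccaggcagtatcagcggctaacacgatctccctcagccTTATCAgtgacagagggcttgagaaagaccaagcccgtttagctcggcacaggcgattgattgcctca

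Of the 10 windows counted here, from 7 of the members, 3 (30%) had such a word, against 8718 of all 32851 windows (26.5%). The GC-rich word CCNCNCCC of the kind bound by KLF factors, searched on both strands, was in 6 of the 10 windows (60%) and in 45.9% of all windows. These are matches of letters in a short window. Fech and Slc25a37 are not among the 7 and are not shown.

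Alas2, the erythroid form of 5-aminolevulinate synthase, makes the first intermediate, and its window is the first one shown above. In VE sp cells its levels were 7.98, 7.69 and 8.27 in induced replicates 1 to 3, against 6.75, 7.19 and 6.64 in non-induced ones. In DP cells they were 9.18, 8.42 and 8.57 when induced, against 7.86, 8.45 and 7.48 when not. VE sp and DP cells thus formed steps, with no overlap between the fractions under either condition. In CD41 sp cells the levels were 11.92, 11.69 and 11.64 when induced, against 11.74, 12.41 and 11.35 when not. In DN cells they were 12.07, 12.68 and 11.62 when induced, against 11.66, 12.68 and 11.33 when not. CD41 sp and DN overlapped. The non-induced change was -5.03 ± 0.35 in VE sp against DN (adjusted p = 4.74e-10, limma) and -3.96 in DP against DN. Among the 9 genes, Alas2 spanned the widest range over the 4 non-induced fractions, and Urod the narrowest.

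The next steps run in the cytosol. Alad, 5-aminolevulinate dehydratase, joins molecules of the first intermediate in pairs. Its levels in VE sp were 10.55, 11.04 and 11.14 when induced, against 10.59, 10.66 and 11.07 when not, and in DP 10.97, 11.02 and 10.98 when induced, against 10.53, 10.67 and 10.90 when not. In CD41 sp they were 12.74, 12.82 and 12.79 when induced, against 12.53, 12.70 and 12.72 when not, and in DN 12.73, 13.16 and 12.47 when induced, against 12.58, 13.16 and 12.70 when not. Alad therefore lay on a low plateau in VE sp and DP, which overlapped, and on a high one in CD41 sp and DN, which also overlapped. The non-induced change was -2.04 ± 0.21 in VE sp against DN (adjusted p = 1.17e-07) and -2.11 in DP against DN.

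Uros, uroporphyrinogen III synthase, closes the ring. Its levels were 7.12, 6.66 and 7.25 in induced VE sp against 6.96, 6.59 and 7.29 in non-induced VE sp cells, and 8.02, 7.13 and 7.72 in induced DP against 7.32, 7.21 and 7.73 in non-induced DP cells. They were 9.85, 8.70 and 9.70 in induced CD41 sp against 9.53, 9.0 and 9.33 in non-induced CD41 sp cells. In DN cells they were 10.36, 10.17 and 9.79 when induced, against 10.14, 10.35 and 9.90 when not. Over both conditions the lowest CD41 sp or DN array stood at 8.70 and the highest VE sp or DP array at 8.02. Non-induced CD41 sp arrays all lay below non-induced DN arrays, as they did for 14.8% of all genes. The non-induced change in VE sp against DN was -3.18 ± 0.29 (adjusted p = 2.97e-08).

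Urod, uroporphyrinogen decarboxylase, trims the side chains of the ring and is the last cytosolic enzyme before the pathway returns to the mitochondrion. Its levels were 11.89, 11.58 and 11.96 in induced VE sp against 11.75, 11.40 and 11.87 in non-induced VE sp cells, and 12.19, 11.68 and 11.91 in induced DP against 11.99, 11.69 and 12.11 in non-induced DP cells. The VE sp and DP arrays overlapped. In CD41 sp the levels were 13.28, 13.20 and 13.45 when induced, against 13.24, 13.39 and 13.25 when not. In DN they were 13.11, 13.56 and 12.80 when induced, against 13.16, 13.69 and 13.17 when not. These 2 fractions overlapped as well. The non-induced change in VE sp against DN was -1.67 ± 0.21 (adjusted p = 3.03e-06), the smallest in size of the 9.

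Cpox, coproporphyrinogen oxidase, works in the mitochondrion, and its probe was dim. In VE sp the levels were 5.35, 4.79 and 4.75 when induced (above background on 1 of 3 arrays), against 5.51, 5.05 and 4.47 when not (2 of 3). In DP they were 5.61, 4.72 and 5.10 when induced (1 of 3), against 5.44, 5.04 and 4.80 when not (2 of 3). The low side of Cpox is thus near the background, and its changes are open to compression by the offset. In CD41 sp the levels were 7.79, 6.64 and 6.50 when induced, against 7.41, 7.21 and 6.91 when not. In DN they were 7.80, 8.07 and 6.23 when induced, against 8.13, 8.32 and 6.64 when not. The DN arrays of replicate 3 were the lowest of their groups. The non-induced change in VE sp against DN was -2.69 ± 0.46 (adjusted p = 0.000132). The probe was detected on all 3 arrays only in the CD41 sp and DN groups, and passed the filter through them alone. The fall of Cpox in VE sp and DP is therefore a description, not a test.

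Ppox, protoporphyrinogen oxidase, takes the ring to protoporphyrin. Its levels in VE sp were 7.71, 7.70 and 7.61 when induced, against 7.25, 7.47 and 7.28 when not, and in DP 7.61, 7.08 and 7.63 when induced, against 7.61, 7.35 and 7.15 when not. In CD41 sp they were 9.53, 8.99 and 9.22 when induced, against 9.33, 9.44 and 9.02 when not, and in DN 9.77, 9.97 and 8.80 when induced, against 9.66, 10.38 and 9.06 when not. The low and high fractions again did not meet. The non-induced change in VE sp against DN was -2.37 ± 0.29 (adjusted p = 2.25e-06).

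Fech, ferrochelatase, inserts the iron. In VE sp its levels were 5.92, 5.89 and 5.63 when induced, against 6.39, 5.81 and 6.29 when not, and in DP 6.93, 6.74 and 4.71 when induced, against 6.74, 6.64 and 6.93 when not. The 4.71 belongs to the induced DP array of replicate 3, where the probe was not above background and which had the most undetected bright probes. In CD41 sp the levels were 8.75, 8.04 and 8.20 when induced, against 8.33, 8.11 and 7.78 when not, and in DN 8.11, 8.11 and 7.39 when induced, against 8.03, 8.48 and 7.50 when not. The high and low sides came close, with the lowest high array at 7.39 and the highest low array at 6.93. The non-induced change was -1.84 ± 0.40 in VE sp against DN (adjusted p = 0.00152) and -1.23 ± 0.40 in DP against DN (adjusted p = 0.0298). Of the 9 drops in DP against DN this was the weakest, and 10 of 20 alternatives did not call it (adjusted p between 0.00103 and 0.330). Its call was lost without any of 5 of the 6 arrays of that comparison, all but the DN array of replicate 3.

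Mscp, mitoferrin, carries iron across the inner mitochondrial membrane. Its levels were 6.53, 6.57 and 5.98 in induced VE sp against 6.78, 6.57 and 6.70 in non-induced VE sp cells, and 7.18, 6.47 and 7.05 in induced DP against 7.02, 6.41 and 6.60 in non-induced DP cells. In CD41 sp they were 9.95, 8.27 and 9.12 when induced, against 9.42, 8.60 and 9.31 when not. In DN they were 10.71, 10.83 and 9.75 when induced, against 10.30, 11.30 and 10.04 when not. Mitoferrin was at its highest in DN, and VE sp and DP overlapped. The non-induced change was -3.86 ± 0.38 in VE sp against DN (adjusted p = 9.63e-08, 14.5-fold) and -3.87 in DP against DN.

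Tfrc, the transferrin receptor, brings iron into the cell. It had 9.64, 9.36 and 9.53 in induced VE sp against 10.09, 9.73 and 9.87 in non-induced VE sp cells, and 11.29, 11.17 and 11.18 in induced DP against 11.14, 10.99 and 11.14 in non-induced DP cells. In CD41 sp it had 12.60, 12.59 and 12.57 when induced, against 12.66, 12.95 and 12.70 when not. In DN it had 12.50, 12.97 and 12.27 when induced, against 12.24, 12.88 and 12.40 when not. Unlike most of the enzymes, Tfrc showed 3 separate steps, with VE sp lowest, DP between, and CD41 sp and DN together at the top. The non-induced change was -2.61 ± 0.19 in VE sp against DN (adjusted p = 8.05e-10) and -1.42 in DP against DN.

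Induced cells showed the same fall between fractions. All 9 genes fell in induced VE sp against induced DN, with changes between -4.14 for Alas2 and -1.35 for Urod and a median of -2.41. Of all genes, 13.2% were called lower there, with a median change of -0.07. All 9 genes also fell in induced DP against induced DN, with changes between -3.53 for Mscp and -1.23 for Urod and a median of -2.07. There, 10.2% of all genes were called lower, and the median over all genes was -0.02. The Fech change was -1.75 with the induced DP array of replicate 3 and -1.03 without it (adjusted p = 0.0141).

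**Figure D2:**
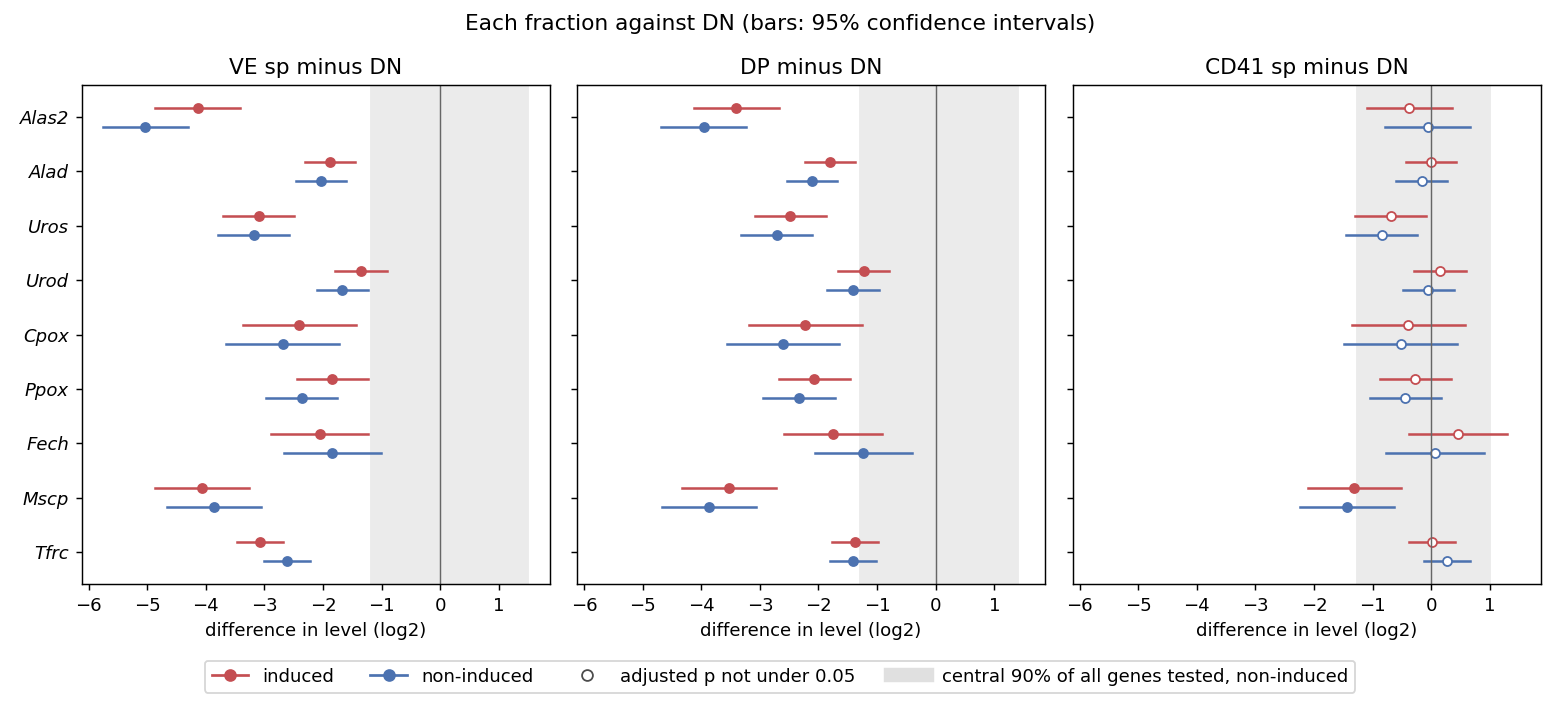
Change of each gene in VE sp, DP and CD41 sp cells against DN cells (horizontal axis, log2), with induced cells drawn above non-induced cells. Bars are 95% confidence intervals, filled points have an adjusted p under 0.05, and grey bands hold the central 90% of all genes tested in non-induced cells. All VE sp and DP points are filled and lie below 0, whereas of the CD41 sp points only those of Mscp are filled.

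CD41 sp cells set against the 2 fractions that carry Cdh5 gave the mirror of this. All 9 genes rose in non-induced CD41 sp against VE sp, with changes from 1.62 for Urod to 4.98 for Alas2 and a median of 2.17. Of all genes, 14.3% were called higher there, with a median change of 0.10. All 9 rose in CD41 sp against DP, with changes from 1.30 for Fech (adjusted p = 0.0361) to 3.90 for Alas2 and a median of 1.89. There, 5.23% of all genes were called higher, with a median of 0.04. Fech in CD41 sp against DP lost its call in 10 of 20 alternatives, among them each of those without the CD41 sp array of replicate 1 or 2 or a DP array, and Cpox in 4 of 20. These comparisons share their VE sp, DP and CD41 sp arrays with those above and are not separate evidence.

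Between the 2 high fractions the genes did not all sit at the same place. In non-induced CD41 sp against DN, Mscp was the only one of the 9 called. It fell by 1.44 ± 0.38 (adjusted p = 0.0109, 2.71-fold lower), with changes of -0.88, -2.70 and -0.73 in replicate sets 1, 2 and 3. Of all genes, 8.62% were called lower there and 15.6% in either direction. The median of the 9 changes was -0.16, and of all genes 0.02. In induced CD41 sp against DN, Mscp fell by 1.31 ± 0.38 (adjusted p = 0.0204), again as the only one, where 15.5% of all genes were called in either direction. The Mscp call in non-induced cells was lost without the CD41 sp array of replicate 2 (adjusted p = 0.0822) or the DN array of replicate 2 (0.0843), with adjusted p between 0.00332 and 0.246 over 20 alternatives. Without all arrays of replicate set 2 the change was -0.81 (adjusted p = 0.206). In induced cells the call was lost in 8 of 20 alternatives, with adjusted p between 0.00326 and 0.315. Among these were the fits without the CD41 sp array of replicate 2 or 3 or the DN array of replicate 1 or 2, and without set 2 the change was -0.70.

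Uros moved the same way with less certainty. Its change in CD41 sp against DN was -0.85 ± 0.29 in non-induced cells (adjusted p = 0.0530) and -0.69 ± 0.29 in induced cells (adjusted p = 0.135). With the replicate number as a block the adjusted p was 0.00813 in non-induced and 0.0296 in induced cells, in fits that called 30.3% and 28.6% of all genes. Tfrc and Fech were the only members with a positive non-induced change in CD41 sp against DN, of 0.27 and 0.07, and neither was called.

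Between the 2 low fractions, 1 gene differed. Tfrc was higher in non-induced DP than in VE sp by 1.19 ± 0.19 (adjusted p = 0.000131, 2.29-fold), and the second Tfrc probe gave 1.11 (adjusted p = 0.000955 over all probes). Of all genes, 3.88% were called higher there and 10.2% in either direction. Alas2 had a change of 1.07 ± 0.35 (adjusted p = 0.0551), and with the replicate number as a block its adjusted p was 0.00965, in a fit that called 21.5% of all genes. The groups did not overlap, with DP higher, for Alas2, Tfrc and Fech (change 0.61, not called), 3 of the 9, and for 11.6% of all genes. Alas2 was called in 3 of 20 alternatives of this comparison, 1 of them without the DP array of replicate 3 (adjusted p = 0.0419), with adjusted p between 0.00912 and 0.630.

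Markers of red cells moved with the heme genes. Primitive red cell markers were tested for 13 genes (14 on the array). In VE sp against DN 11 of the 13 fell (median change -4.75), where 12.2% of all genes were called lower. In DP against DN 11 fell (median -3.81), where 10.9% of all genes were called lower. In induced cells 12 fell in VE sp and 11 in DP against DN, where 13.2% and 10.2% of all genes were called lower. Summed over the list, their linear normalised intensity ranged from 5873 to 11159 in induced VE sp and from 4886 to 8083 in non-induced VE sp cells, and from 6614 to 19123 in induced DP and from 9672 to 22237 in non-induced DP cells. It ranged from 102257 to 129677 in induced CD41 sp and from 121198 to 135819 in non-induced CD41 sp cells, and from 106444 to 161813 in induced DN and from 112249 to 146889 in non-induced DN cells. The probe of the adult globin gene Hbb-b1 was not above background on any array of either VE sp or DP group or of non-induced DN cells, Rhag on none of the VE sp arrays, and Spna1 on none of the induced VE sp and non-induced DP arrays. The part of the share of red cells in the differences between fractions was not tested.

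Regulators of the red cell program, transcription factors and the erythropoietin receptor, changed in both directions. Of 13, 5 fell in VE sp against DN, among them the transcription factors Klf1 by 4.97 and Gata1 by 3.34 (Gata1 was above background on 1 of 3 VE sp arrays), together with the receptor Epor by 2.49. Lmo2 and Lyl1, which also act in blood and vessel progenitors, rose by 1.11 and 1.17. Of all genes, 12.4% were called higher and 12.2% lower in VE sp against DN. In CD41 sp against DN 5 of the 13 rose and none fell, where 15.6% of all genes were called in either direction. With the replicate number as a block 8 rose, in a fit that called 30.3% of all genes. Endothelial markers went the other way, with all 9 tested higher in VE sp (12.4% of all genes) and in DP (11.1%) than in DN. All 7 megakaryocyte and platelet markers were higher in DP (11.1% of all genes) and in CD41 sp (15.6% in either direction) than in DN. In VE sp against DN this list split. Itga2b was called higher (change 1.62), Gp9 was called lower (change -0.98) and the others were not called. Of 6 epithelium and endoderm markers, 5 were lower in VE sp (12.2% of all genes), 6 in DP (10.9%) and 6 in CD41 sp (8.62%) than in DN. The part of these cell types in the result was not tested.

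Other genes of heme synthesis split. Of 12 tested enzymes, transporters and cofactors (13 on the array), 5 fell and none rose in VE sp against DN, with a median change of -0.52. Of all genes, 12.2% were called lower there and 12.4% higher. Slc25a38, the mitochondrial glycine carrier, fell by 1.38, and Slc25a39, a mitochondrial carrier tied to glutathione import, by 1.12. Abcb10 and Abcb6, mitochondrial transporters linked to heme, fell by 1.87 and 1.63. Alas1, the form of the first enzyme used outside red cells and named here after its values were seen, had a change of 0.32 (adjusted p = 0.43). In DP against DN 5 of the 12 fell, with a median of -0.24, where 10.9% of all genes were called lower. In CD41 sp against DN only Tspo was called, higher by 0.82 (adjusted p = 0.0138). There, 15.6% of all genes were called in either direction.

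Other iron genes changed in both directions. Of 16 tested genes for iron uptake, storage and export (23 on the array), 4 rose and 1 fell in VE sp against DN, where 12.4% of all genes were called higher and 12.2% lower. Trf, the iron carrier transferrin that Tfrc binds, rose by 2.57 ± 0.21 (adjusted p = 5.68e-09) and was above background on 1 of 3 DN arrays. Heph, an iron oxidase that works with the exporter, rose by 2.15 ± 0.48, and Slc40a1, the exporter ferroportin, rose by 1.24 ± 0.33. Hfe, which binds the transferrin receptor, rose by 1.36 ± 0.24 and was above background on 2 of 3 DN arrays. Slc11a2, which moves iron out of endosomes, fell by 0.80 ± 0.26 (adjusted p = 0.0267). Slc39a8, a zinc and iron carrier named after its values were seen, had changes of -2.25 in VE sp (adjusted p = 0.0911) and -2.62 in DP (0.0520) against DN, and with the replicate number as a block its adjusted p was 3.98e-06 and 5.21e-07. With the block, 6 of the 16 rose and 3 fell in VE sp against DN, in a fit that called 43.8% of all genes. In DP against DN, Trf, Heph and Hfe rose by 2.48, 1.63 and 0.72. In induced cells Trf, Heph, Hfe and Slc40a1 rose in VE sp against DN by 2.63, 2.87, 2.02 and 1.62, while Slc11a2 fell by 0.92 and Ncoa4, the receptor that sends ferritin for breakdown, fell by 1.45 (adjusted p = 0.0451). These are 4 higher and 2 lower of 16, where 13.3% of all genes were called higher and 13.2% lower. In CD41 sp against DN, Slc40a1 fell by 1.26 in induced cells (adjusted p = 0.00955) as the only call of the 16 (15.5% of all genes). In non-induced cells limma called none of the 16 (15.6% of all genes), and the block called 1 higher and 2 lower (30.3%).

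Genes of heme breakdown, transport and sensing and of iron-sulfur cluster assembly were mixed. Of 8 tested genes for heme breakdown, transport and sensing, 3 fell in VE sp against DN: Blvrb, a biliverdin reductase abundant in red cells, by 2.49, the heme-binding Hebp1 by 2.25, and Eif2ak1, the heme-regulated kinase of translation, by 1.12. With the same block, 2 rose and 5 fell. In CD41 sp against DN, Blvra, the other biliverdin reductase, rose by 0.87. Of 8 tested genes of iron-sulfur cluster assembly, 3 fell and 1 rose in VE sp against DN, with a median of -0.48, and with the block 6 fell and 1 rose. The block fit is the one that called 43.8% of all genes in VE sp against DN. Without the block, 12.4% of all genes were called higher there and 12.2% lower.

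On induction none of the 9 genes was called in the main fit, which leaves out the replicate number. The fit with that number as a block called Alas2. In the main fit the counts of members called were 0 of 9 in VE sp (1.14% of all genes were called), 0 of 9 in DP (0.136%), 0 of 9 in CD41 sp (0.0938%) and 0 of 9 in DN cells (0.928%). Averaged over the 4 fractions the count was also 0 of 9, where 2.97% of all genes were called and the Notch target Hey1 rose by 2.50 ± 0.30 (adjusted p = 3.99e-05). By the unadjusted p under 0.05, 1 of the 9 passed in VE sp, 1 in DP, 0 in CD41 sp, 0 in DN and 1 on average. With the replicate number as a block, 1 was called in VE sp (4.36% of all genes) and 1 on average (12.9%), Alas2 in both, and 0 in the other fractions. Over the 9 genes the 95% confidence intervals of the induction change reached from -1.18 to 1.85 in VE sp, from -1.48 to 1.52 in DP, from -1.16 to 1.09 in CD41 sp and from -1.29 to 0.96 in DN cells. Averaged over the fractions they reached from -0.64 to 0.88. The widest interval in a single fraction reached 0.962 to either side of its change, so changes smaller than that could not be told from 0 for the most variable genes at this number of arrays.

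Alas2 had the largest change on induction among the 9. Its change was 1.13 ± 0.35 in VE sp (95% confidence interval 0.40 to 1.85, adjusted p = 0.183), with 1.24, 0.50 and 1.63 in replicate sets 1, 2 and 3, and the induced and non-induced arrays did not overlap. Groups without overlap, higher when induced, were found for 6.50% of all genes in VE sp. With the replicate number as a block the adjusted p was 0.0263, in a fit that called 4.36% of all genes. Over 20 alternatives it ran from 0.0263 to 1, and without the arrays of replicate set 2 the change was 1.46 (adjusted p = 0.0442). In DP the change was 0.79 (adjusted p = 0.842), with 1.32, -0.04 and 1.10 in the 3 sets, in CD41 sp -0.08 and in DN 0.23. On average over the fractions it was 0.52 ± 0.17 (adjusted p = 0.139), with 0.79, -0.06 and 0.83 in the 3 sets. With the block its adjusted p was 0.0215, in a fit that called 12.9% of all genes. Without the non-induced DN array of replicate 2 it was 0.0427, and without replicate set 2 it was 0.0127, with a range of 0.0127 to 1.00 over 38 alternatives. Red cell markers in VE sp had a median induction change of 0.30, positive in 11 of 13 and called in 0, with 1.00 for Slc4a1 and 0.93 for Hbb-y. Their part in the Alas2 value was not tested.

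**Figure D3:**
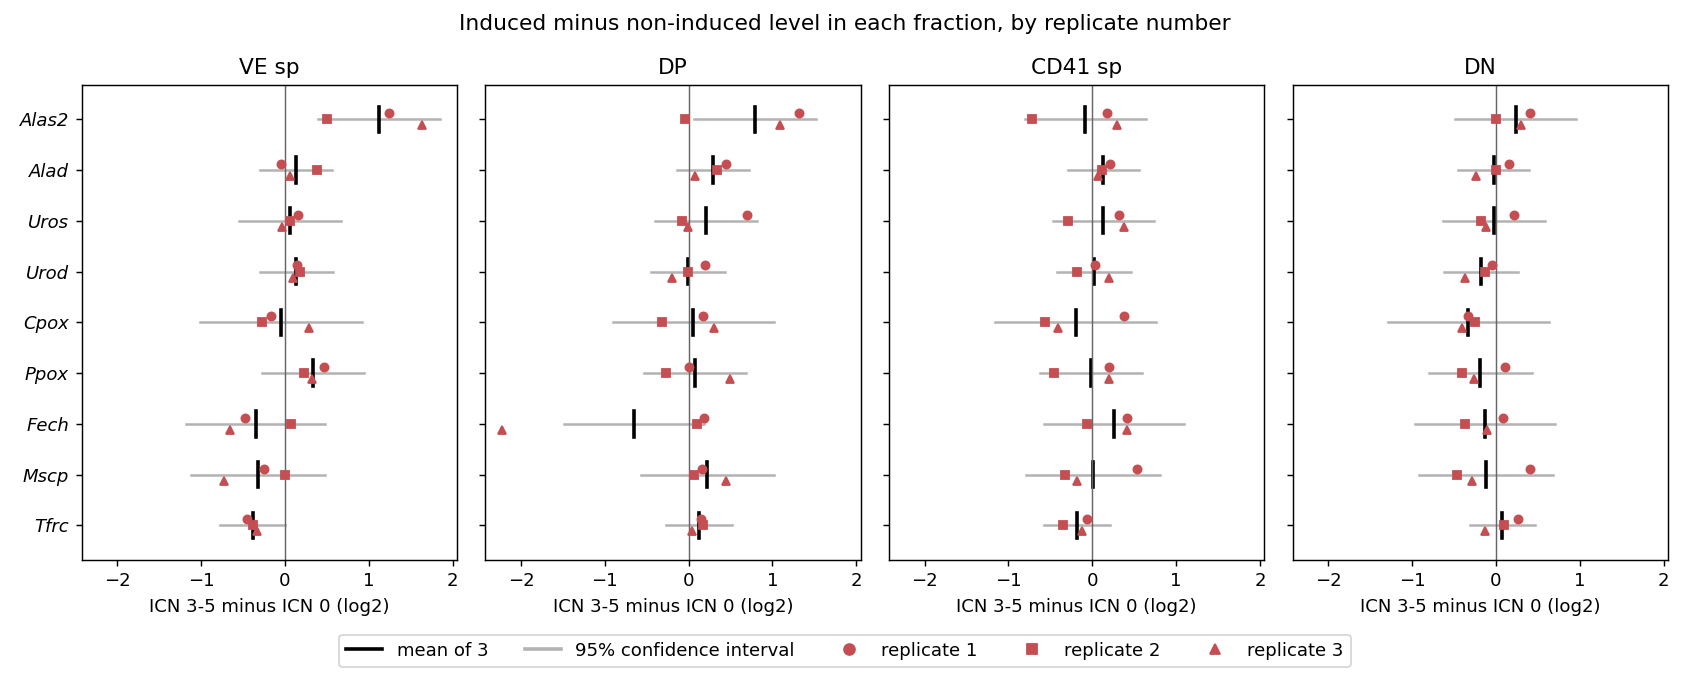
Induction change of each gene in each fraction (ICN 3-5 minus ICN 0, log2), by replicate set, with the mean and its 95% confidence interval. Alas2 is above 0 in all 3 sets of VE sp cells and Tfrc is below 0 in all 3. No mean had an adjusted p under 0.05 in the main fit, without the replicate block.

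Tfrc had induction changes of different sign in the fractions. In VE sp it was -0.39 ± 0.19 (95% confidence interval -0.78 to 0.01, adjusted p = 0.713), with -0.45, -0.38 and -0.33 in the 3 sets and no overlap of the groups. Groups without overlap, lower when induced, were found for 4.15% of all genes. The second Tfrc probe gave -0.40 ± 0.21. In DP the change was 0.12, with 0.15, 0.18 and 0.04 in the 3 sets, and in CD41 sp -0.18, with -0.06, -0.35 and -0.12, and in both the groups did not overlap. In DP 5.72% of all genes had groups apart with the induced side higher, and in CD41 sp 4.53% with the induced side lower. None of these changes was called, with or without the block.

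The remaining induction changes were small or rested on few arrays. Fech in DP had a change of -0.65, with 0.18, 0.10 and -2.22 in the 3 sets, and without the induced array of replicate 3 the change was 0.06. Ppox in VE sp had 0.34, with 0.46, 0.23 and 0.33 in the sets and no overlap. Alad had 0.29 in DP and 0.13 in CD41 sp, again with no overlap. In CD41 sp 3.77% of all genes had groups apart with the induced side higher. A test of whether the induction change differed among the 4 fractions called 0.146% of all genes and none of the 9, with adjusted p of 1 for each and between 0.261 and 0.950 with the block. The Alas2 response in CD41 sp minus that in VE sp was -1.21 (unadjusted p = 0.0233, adjusted p = 0.783).

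The order of the fractions was much alike over the 9 genes. Over the 8 group means, Pearson's r between members ran from 0.862 to 0.991 in 36 pairs, with a median of 0.967. The points share arrays, and the high and low fractions form 2 clusters, so that r mainly restates the gap. Within groups, the deviations of the 24 arrays from their group means correlated with r from 0.0559 to 0.843, median 0.446. In DN cells all 9 genes lay above the group mean in replicate 2 and below it in replicate 3, under both conditions. Their median deviations were 0.40 and -0.48 in induced and 0.48 and -0.51 in non-induced cells. How many of all genes did the same was not counted. Deviations over all genes also correlated between arrays of the same replicate number, at 0.293 to 0.777.

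**Figure D4:**
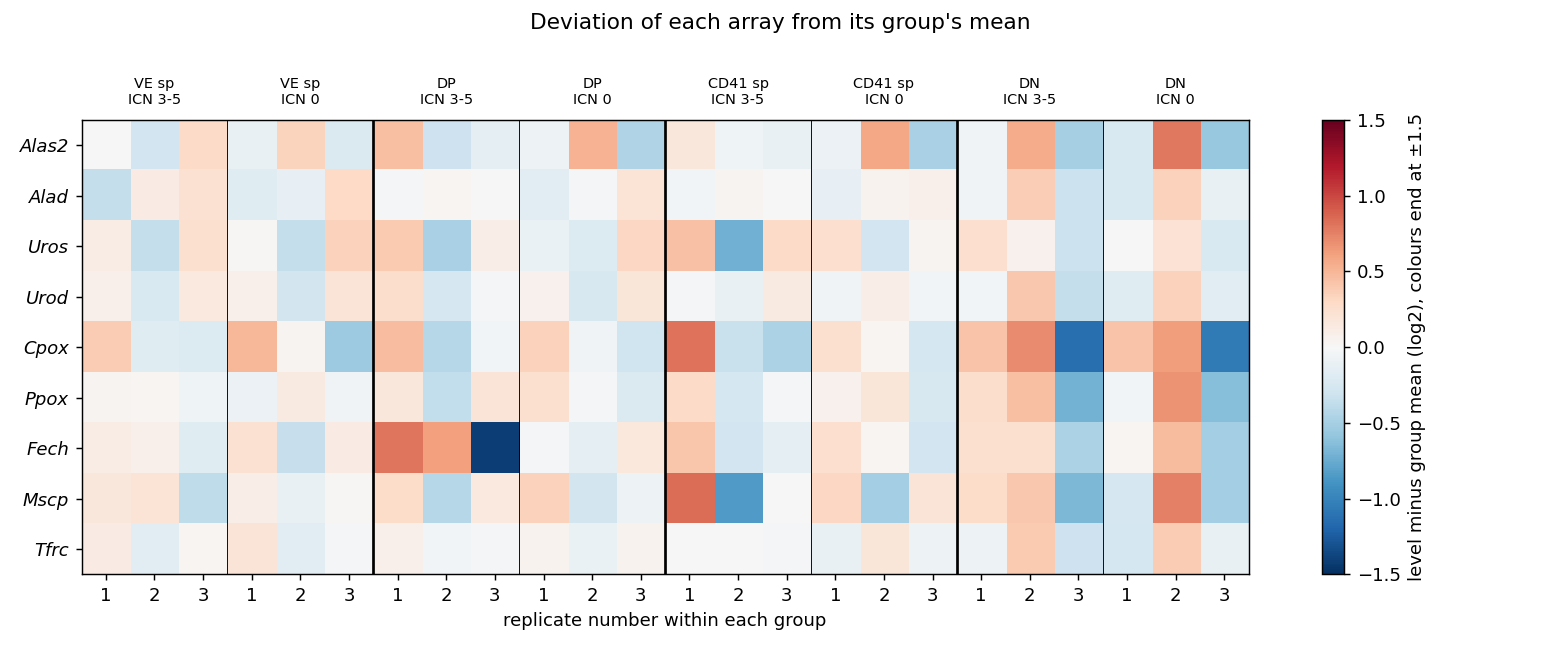
Deviation of each array from its group mean (colour, log2, scale ending at 1.5 either side of 0) for the 9 genes, by group and replicate. In both DN groups all genes are above the mean in replicate 2 and below it in replicate 3.

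The tested genes most like a member over the 8 group means were named by Pearson's r. For Alas2 they were Gcdh (r = 0.995), Abcb10 (0.995), Eraf (0.992), Hbb-y (0.991), Smox (0.989) and Ring1 (0.989). Eraf encodes the chaperone of alpha globin and Hbb-y an embryonic beta globin. For Tfrc they included Xrcc2 (r = 0.997), Esco2 (0.995), Tmem20 (0.991), Rfc5 (0.990) and Hspa2 (0.988). The closest pairs for the others were Frs2 and Galnt10 for Alad, Dp1l1 and Klhl12 for Uros, and Eraf and the alpha globin gene Hba-a1 for Urod. For Cpox they were Ptdss2 and Ermap, a red cell membrane protein, for Ppox Frs2 and Hebp1, for Fech Cep1 and Coq5, and for Mscp Abcg4 and Ddit3. Here too the 8 points fall into a high and a low cluster.

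Further probes of the same genes mostly gave the same picture. The second Uros probe had -3.63 in VE sp and -2.67 in DP against DN, the second Ppox probe -1.67 and -1.87, and the second Tfrc probe -2.71 and -1.60, all called over all probes. Of the other Fech probes, ILMN_2710731 had -1.88 and -1.37, both called, and ILMN_1229519 had -1.32 (adjusted p = 0.136) and -1.28 (0.169), neither called. The remaining Cpox probes did not pass the detection filter and were not tested. One of them was not above background on any of the 24 arrays, and the other had -0.85 in VE sp and -0.91 in DP against DN.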

How the data were processed

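The arrays of a replicate number shared a deposited table of raw probe intensity, which the file headers call non-normalized and whose values still held the background. A detection p-value stood beside each signal, per the file headers. Columns were matched to samples by name. In the first set the induced DN and DP columns name ICN without days and were matched through the sample titles. The authors' processed intensity values were deposited separately on a linear scale, not centred, with column medians of 78.66 to 78.73, 59.87 to 59.90 and 66.86 to 66.92 in sets 1, 2 and 3. How they were made is not stated in the labels or headers. They served as an alternative. Per the labels' protocols, RNeasy columns gave the RNA and a MessageAmp kit the labelled cRNA.

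The neqc function (limma 3.58.1, R 4.3.3) corrected the signals, with the background taken from the detection p-values, an offset of 16 and quantile normalisation. A probe was kept if some group had it detected (p under 0.05) on its 3 arrays, which left 12894, and the brightest kept probe stood for a symbol. On an array, between 41.8% and 51.3% of probes were detected, and the number of arrays limits the precision. Group means of the 8 groups were fitted on all 24 arrays with lmFit and eBayes (16 residual degrees of freedom), and p-values were adjusted by Benjamini-Hochberg over all genes tested. Alternatives were another scaling, no background correction, an offset of 50, the processed values, other filters and probe rules, array weights, a trended prior, a replicate block, and leaving out arrays or sets.

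Members and gene lists were chosen with earlier results of these data known. Text names all members, Itga2b, Cdh5 and Hey1, up to 6 called genes with the largest change per list and comparison, and the genes most like a member (6 for Alas2 and Tfrc, 2 for the others), except some that are not reported here. Replicate numbers pair the samples: deviations from group means over all genes correlated at 0.293 to 0.777 in all 84 same-number pairs, and at -0.626 to 0.0947 in the 168 other pairs. Deviations within a group cancel out, so the mostly negative second range follows from the first and is not separate evidence. What a number stands for is not stated beyond the shared table. Symbols of all 9 members matched the RefSeq table of GRCm38.p6, from which names, promoters and their coordinates were taken.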

Additional observations from a re-analysis of the deposited data

Results flagged for a closer look

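Every member was screened over every pair of fractions. A case was listed where the 3 replicate sets shared a sign within each fraction and the sign differed between them. A called difference of responses was also a reason to list a case. Signs can meet this rule by chance, so the cases below are descriptions. Tfrc had induction changes of opposite sign on every replicate set in VE sp and DP cells, negative in VE sp and positive in DP. Its response in VE sp minus that in DP was -0.51, and the difference itself was tested and not called (adjusted p = 0.999 by limma over all genes, 0.362 with the replicate number as a block). In CD41 sp its response was also negative in all 3 sets, and the response in CD41 sp minus that in DP was -0.30 (adjusted p = 1.0, and 0.721 with the block). Urod had a positive induction change in all 3 sets of VE sp cells (mean 0.14) and a negative one in all 3 sets of DN cells (mean -0.18). The response in VE sp minus that in DN was 0.32 (adjusted p = 1.0, and 0.669 with the block).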

How the results depend on the processing

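All 9 members stayed lower in VE sp and in DP than in DN under each of the 20 alternatives, and no called change took the other sign. Of 2682 values of 126 member comparisons under an alternative, 2622 kept their side of the threshold, 47 lost the call and 13 gained it. With the replicate block, 1 member was called for induction in VE sp, 1 for induction on average, 2 in non-induced CD41 sp against DN, 2 in non-induced DP against VE sp and 2 in induced CD41 sp against DN, and the block changed no other call of a member. Array weights called 1 for induction on average and 2 in DP against VE sp. Median scaling called 0 members in CD41 sp against DN, induced or not, and moved the median of all genes to 0.33 in CD41 sp against VE sp, 0.30 in DP against VE sp and -0.26 in VE sp against DN. No background correction and an offset of 50 each called 2 in non-induced CD41 sp against DN. The authors' processed values called 0 in CD41 sp against DN, induced or not, and 0 in DP against VE sp, and left 5 of 9 members apart on all 24 arrays. The causes were not tested.

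Leaving out 1 array or set, the count called ranged from 0 to 1 for induction in VE sp and on average, from 0 to 1 in CD41 sp against DN under both conditions, and from 1 to 2 in DP against VE sp. It ranged from 8 to 9 in VE sp and in DP against DN under both conditions, and from 7 to 9 in CD41 sp against DP. It stayed at 9 in CD41 sp against VE sp and at 0 for induction in DP, CD41 sp and DN. Fech lost its call in non-induced VE sp against DN without replicate set 2 (adjusted p = 0.101) and with the processed values (0.0730). Cpox lost its call in induced VE sp and DP against DN without set 2 (0.0524 and 0.114) and with the processed values (0.0565 and 0.0898). Dim probes such as those of Cpox and Fech sit close to the background, which limits how small a change they can show.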

Other observations

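Megakaryocyte and platelet markers had a negative induction change in CD41 sp cells for 7 of 7 genes (median -0.26), none of them called by limma. These changes ran from -1.30 ± 0.69 for Cxcl4 to -0.02 ± 0.24 for Itga2b, and the median of all genes was -0.01. Genes of iron-sulfur cluster assembly had a negative induction change in DN cells for 8 of 8 (median -0.20), none called. They ran from -0.49 ± 0.49 for Bola3 to -0.006 ± 0.22 for Isca1, with a median of 0.01 over all genes. Genes of a list share their arrays, and the share of all genes with the same sign was not counted. The signs in most other lists and comparisons are not given here. On average over the 4 fractions, 1 of 13 erythroid regulators, Bcl11a, was called higher on induction (0.78, adjusted p = 0.00398 by limma), where 2.97% of all genes were called. With the replicate number as a block, 2 of the 13 were called higher and 1 lower, in a fit that called 12.9% of all genes.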
